A study of Mus musculus with 12 samples.

Results

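The 10 genes described here encode the isozymes of 4 enzymes of glycolysis: Hk1 and Hk2 (hexokinase), Pfkl, Pfkm and Pfkp (phosphofructokinase), Aldoa and Aldoc (aldolase), and Eno1, Eno2 and Eno3 (enolase). They were chosen by name, with earlier results of these data known, and all 10 were found among the 23163 gene rows of the count table. Sequenced RNA came from brown adipose tissue (BAT), the depot specialised in heat production, and from subcutaneous white adipose tissue (sWAT) of male C57Bl/6 mice aged 8 to 12 weeks. The mice were held for 72 hours either at 4 °C (cold) or at 30 °C (thermoneutral), with 20 mice in the study and 10 at each temperature, and no transgene, deletion or drug was named for any group. There were 12 libraries, 3 for each tissue and temperature, and no source states whether they came from single animals or pools, so p-values measure only the spread between these libraries. Library numbers are the experiment numbers in the sample titles, whose meaning is not explained.

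Glycolysis splits glucose into pyruvate. Hexokinase traps glucose in the cell as glucose 6-phosphate, phosphofructokinase commits it to the pathway, aldolase cleaves the resulting sugar diphosphate into triose phosphates, and enolase makes phosphoenolpyruvate near the end. Each enzyme exists as isozymes encoded by separate genes with different tissue habits: Hk1 is widespread and binds mitochondria, Hk2 is the insulin-responsive form of muscle and fat, and the L, M and P phosphofructokinases were named for liver, muscle and platelets. Aldoa is the muscle and general form of aldolase and Aldoc the brain form. Eno1 is the general enolase, Eno2 the neuronal form and Eno3 the muscle form. Brown fat takes up large amounts of glucose in the cold, and part of that carbon goes into new fat.

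Totals ran from 27117934 to 56243016 counts per library. Brown adipocyte markers (9 genes, summed) lay between 26402 and 29925 CPM (counts scaled to a common library total with TMM factors) in BAT cold, between 6456 and 7133 in BAT thermoneutral, between 4713.5 and 17864 in sWAT cold and between 273 and 1199 in sWAT thermoneutral libraries. They were higher in BAT than in sWAT at each temperature, and the 6 white adipocyte markers were higher in sWAT (501 to 842 CPM) than in BAT (42.5 to 233 CPM). The sWAT thermoneutral libraries stood apart from the other 9. Mitochondrially encoded genes took 0.181% to 0.307% of their counts against 17.6% to 53.8% elsewhere, and log2 CPM rose with GC content by 0.81 to 1.37 per 10 percentage points against −0.74 to 0.24 elsewhere. BAT cold library 3 had the highest mitochondrial part of the other 9 and the lowest GC slope, at 53.8% and −0.74. Libraries 1 and 2 of that group had 24.4% and 20.0%, and 0.16 and 0.24. Each sWAT comparison below includes the sWAT thermoneutral libraries, and a correction for GC content was run as an alternative. In sWAT the composition of the libraries runs with temperature, and their effects cannot be told apart. That holds for the sWAT cold response, the thermoneutral tissue comparison and the difference of responses.

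Cold against thermoneutral BAT asks how the isozymes of the heat-producing depot respond to cold. Hk1, Hk2, Pfkl and Pfkp rose and Aldoc fell, so 4 of 10 isozymes were called higher and 1 lower by edgeR's quasi-likelihood test at a Benjamini-Hochberg adjusted p of 0.05. Over all 14612 genes tested in BAT, 6.82% were called higher and 5.34% lower. The median log2 fold change of the 10 isozymes was 1.01, and that of all genes tested was −0.040. The same comparison in sWAT, the depot in which cold brings out brown-like adipocytes, called Hk2, Pfkl, Pfkm and Pfkp higher and Eno2 lower. That is again 4 higher and 1 lower, but 25.1% of the 15731 genes tested in sWAT were called higher and 24.1% lower, with medians of 1.56 for the isozymes and 0.0049 for all genes. Hk2, Pfkl and Pfkp were called higher in both tissues.

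**Figure D1:**
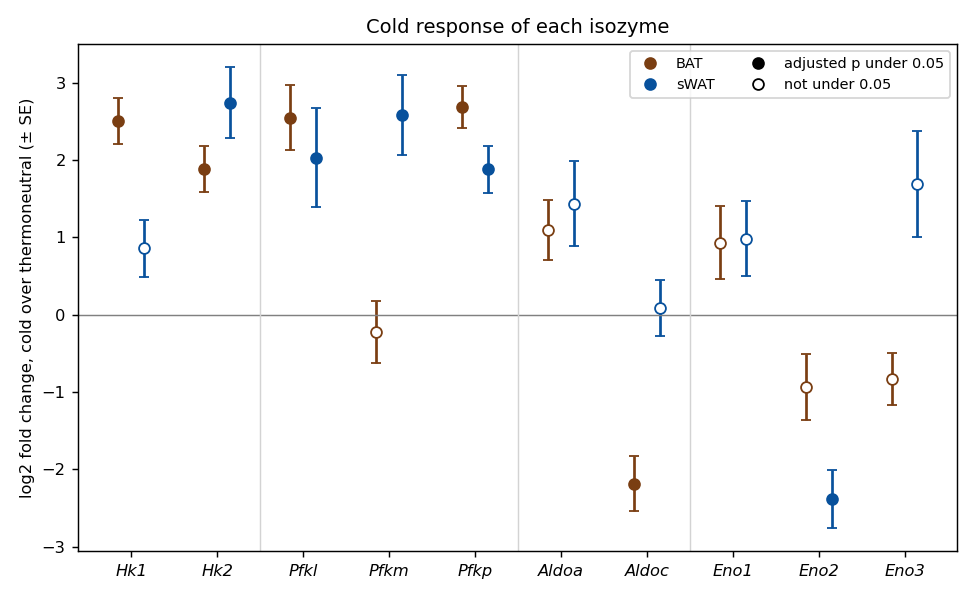
Log2 fold change of cold over thermoneutral for each isozyme in BAT (brown) and sWAT (blue), with bars of 1 standard error (SE) from edgeR and filled points where the adjusted p was under 0.05. Hk2, Pfkl and Pfkp lie above 0 with filled points in both tissues, whereas Pfkm lies at −0.23 in BAT and 2.58 in sWAT.

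Hexokinase. Hk2 (ENSMUSG00000000628.10, mm10 chromosome 6, 82725025 to 82774454, minus strand) had 237, 299 and 324 CPM in thermoneutral BAT libraries 1, 2 and 3 and 1110.5, 1177 and 776 CPM in cold BAT. Every cold library was above every thermoneutral one, and the mean was 3.56 times higher, a log2 fold change of 1.89 ± 0.30 (SE, n = 3 per group, edgeR adjusted p = 0.00788). In sWAT Hk2 had 92.4, 75.9 and 55.97 CPM at thermoneutrality and 238, 791 and 489 CPM in cold. The groups again did not overlap, sWAT cold library 1 was the lowest of its group, and the log2 fold change was 2.74 ± 0.46 (edgeR adjusted p = 0.00187).

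Hk1 (ENSMUSG00000037012.18, chromosome 10, 62268855 to 62379908, minus strand) had 27.2, 20.5 and 17.5 CPM in thermoneutral BAT and 134, 134 and 86.4 CPM in cold BAT, a log2 fold change of 2.50 ± 0.30 (edgeR adjusted p = 0.00314). Its cold and thermoneutral libraries did not overlap in BAT and did so in sWAT, where it had 47.1, 21.5 and 27.6 CPM at thermoneutrality and 40.2, 84.3 and 51.6 CPM in cold. The sWAT log2 fold change was 0.86 ± 0.37 (edgeR adjusted p = 0.0842), and it reached 1.62 (adjusted p = 0.00413) with the GC correction, 1.07 (0.0306) without sWAT cold library 1 and 1.27 (0.0323) without sWAT thermoneutral library 1.

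Isozyme shares were taken as each gene's counts per kilobase of annotated exon, divided by the sum over the listed isozymes of its enzyme in the same library, so they need no scaling between libraries. Hk2 made up most of the hexokinase signal in every library. In BAT the Hk1 share was 7.44%, 4.56% and 3.64% at thermoneutrality and 7.79%, 7.39% and 7.22% in cold, and the groups overlapped (exact permutation test, two-sided, p = 0.3). Both genes rose in BAT, and the sum of the pair went from 50.6 ± 6.96 to 185 ± 39.2 CPM per kilobase (SD, n = 3). In sWAT the Hk1 share was 26.3%, 16.5% and 25.6% at thermoneutrality and 10.6%, 6.94% and 6.88% in cold. It fell by 14.7 percentage points with no overlap between the groups (exact permutation p = 0.1, the smallest that 3 against 3 libraries allow), and the sum rose from 16.3 ± 4.29 to 91.6 ± 49.1 CPM per kilobase.

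Another hexokinase, Hk3, known from blood cells and macrophages, fell in sWAT by 2.67 ± 0.28 on the log2 scale (edgeR adjusted p = 0.000353), from 10.96 ± 0.422 to 1.73 ± 0.278 CPM (SD, n = 3). The macrophage markers (10 genes, 0 of them without counts) summed to between 971 and 1554 CPM in thermoneutral sWAT, 285 to 422 in cold sWAT, 115 to 179 in thermoneutral BAT and 103 to 117 in cold BAT. Their part in the Hk3 and hexokinase share results was not tested, and in bulk tissue fewer cells of a type and less RNA per cell cannot be told apart.

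The 250 bases before the RefSeq transcription start (GRCm38.p6, the build of mm10) are shown for the isozymes called higher in both tissues, each of which has a single start in that set. Capitals mark the letters ACGTG or their reverse complement, the core that hypoxia-inducible factors recognise.
Hk2 chr6:82774455-82774704, minus strand: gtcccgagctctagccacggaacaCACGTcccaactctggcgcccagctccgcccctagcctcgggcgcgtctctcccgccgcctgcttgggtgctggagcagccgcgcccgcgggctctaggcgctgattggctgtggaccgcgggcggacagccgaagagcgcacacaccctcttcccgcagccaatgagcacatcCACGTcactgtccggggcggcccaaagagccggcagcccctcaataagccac
Pfkl chr10:78009808-78010057, minus strand: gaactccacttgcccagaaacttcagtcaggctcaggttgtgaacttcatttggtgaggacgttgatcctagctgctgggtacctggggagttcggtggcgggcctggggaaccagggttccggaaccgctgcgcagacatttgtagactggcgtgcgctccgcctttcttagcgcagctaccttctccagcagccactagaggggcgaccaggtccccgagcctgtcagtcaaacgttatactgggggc
Pfkp chr13:6648772-6649021, minus strand: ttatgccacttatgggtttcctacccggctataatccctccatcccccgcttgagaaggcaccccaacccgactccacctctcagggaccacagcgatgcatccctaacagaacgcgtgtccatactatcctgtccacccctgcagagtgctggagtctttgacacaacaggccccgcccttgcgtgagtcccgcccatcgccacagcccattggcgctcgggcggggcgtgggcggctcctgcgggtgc
The following motifs were searched on both strands of the 300-base windows that run 250 bases before to 50 after each start: ACGTG, the E-box CACGTG that contains it, the cyclic AMP response element TGACGTCA and the estrogen-related receptor half-site AAGGTCA. The Hk2 window held ACGTG at 2 places, with first bases at −226 and −52 from the start, and the Pfkl and Pfkp windows held none of the motifs. Of 32851 promoter windows in the set, 19.6% held ACGTG, 7.15% CACGTG, 1.79% TGACGTCA and 4.72% AAGGTCA. Across the 19 windows of the 10 isozymes, ACGTG also occurred in windows of Hk1, Pfkm, Aldoa and Aldoc, with CACGTG in a Pfkm window, and AAGGTCA occurred in the Eno1 window at −163. These matches describe the letters in the windows and were not tested against the cold responses.

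Phosphofructokinase. Pfkl (ENSMUSG00000020277.10, chromosome 10, 77986947 to 78010083, minus strand) had 294, 342 and 237 CPM in thermoneutral BAT and 2095, 2019 and 789.5 CPM in cold BAT. The cold libraries lay above the thermoneutral ones, with cold library 3 well below the other 2, and the log2 fold change was 2.54 ± 0.42 (edgeR adjusted p = 0.00882). In sWAT Pfkl had 318, 194 and 114 CPM at thermoneutrality and 234, 1469 and 897 CPM in cold, so cold library 1 fell inside the thermoneutral range. The log2 fold change in sWAT was 2.03 ± 0.64 (edgeR adjusted p = 0.0284). Leaving out sWAT cold library 2 or 3 took this call away (0.0875 and 0.0604), and so did leaving out library 2 or 3 of thermoneutral sWAT (0.0965 and 0.0867), within adjusted p of 0.00142 to 0.127 over all alternatives.

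Pfkp (ENSMUSG00000021196.14, chromosome 13, 6579768 to 6648777, minus strand) had 46.1, 47.2 and 62.5 CPM in thermoneutral BAT and 329, 306 and 329.5 CPM in cold BAT. The 3 cold libraries were close together and 6.19 times the thermoneutral mean, a log2 fold change of 2.68 ± 0.27 (edgeR adjusted p = 0.00159). In sWAT Pfkp had 47.6, 35.1 and 36.8 CPM at thermoneutrality and 97.5, 180.4 and 166 CPM in cold, without overlap, and the log2 fold change was 1.88 ± 0.30 (edgeR adjusted p = 0.00153). Its exons overlap those of Pitrm1 on the opposite strand over 748 bases, 5.58% of their length, and reads there cannot be assigned without knowing the strand setting of the counts.

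Pfkm (ENSMUSG00000033065.14, chromosome 15, 98092589 to 98132451, plus strand) behaved differently in the tissues. In BAT it had 122, 250.4 and 86.6 CPM at thermoneutrality and 131, 142 and 106 CPM in cold, so the groups overlapped, and its log2 fold change was −0.23 ± 0.40 (edgeR adjusted p = 0.748). In sWAT it had 69.0, 61.9 and 22.7 CPM at thermoneutrality and 152, 347 and 427 CPM in cold, without overlap, a log2 fold change of 2.58 ± 0.52 (edgeR adjusted p = 0.00405). Pfkm exons overlap those of Gm26513, another row of the count table, on the same strand over 341 bases, 10.2% of their length. Reads there could be counted for either gene, whatever the strand setting.

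The shares followed these differences. In BAT the Pfkl share of phosphofructokinase was 52.5%, 39.5% and 53.8% at thermoneutrality and 83.1%, 82.2% and 67.7% in cold. The Pfkm share was 43.4%, 57.8% and 39.2% at thermoneutrality and 10.4%, 11.6% and 18.2% in cold. Neither share overlapped between the temperatures (exact permutation p = 0.1 for each, the smallest possible), with mean shifts of 29.1 points for Pfkl and −33.4 points for Pfkm. The summed level of the isozymes rose from 93.2 ± 32.8 to 307 ± 114 CPM per kilobase, so the BAT pool grew while Pfkm, on its own, had 45.8 ± 25.8 and 37.8 ± 5.50 CPM per kilobase. Pfkp held 4.63 ± 2.22% and 8.93 ± 4.46% of the pool (exact permutation p = 0.3).

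In sWAT the Pfkl share was 66.3%, 57.9% and 64.1% at thermoneutrality and 40.0%, 65.2% and 48.9% in cold, and the Pfkm share 28.7%, 36.9% and 25.6% against 51.7%, 30.8% and 46.6%. Both overlapped between the temperatures (exact permutation p = 0.3 and p = 0.2), and cold library 2 was the one that lay within the thermoneutral ranges. The pool rose from 49.6 ± 22.7 to 233 ± 130 CPM per kilobase. The choice of length moves these shares, because the annotated exon unions differ (6675 bases for Pfkl, 3340 for Pfkm and 13401 for Pfkp) while the coding lengths are nearly equal (2340, 2340 and 2352 bases). By coding length Pfkl held 59.5% of the BAT pool at thermoneutrality and 76.2% in cold, Pfkm 29.3% and 6.52%, and Pfkp 11.1% and 17.3%, so the BAT shift of Pfkl was 16.6 points and that of Pfkm −22.8 points.

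**Figure D2:**
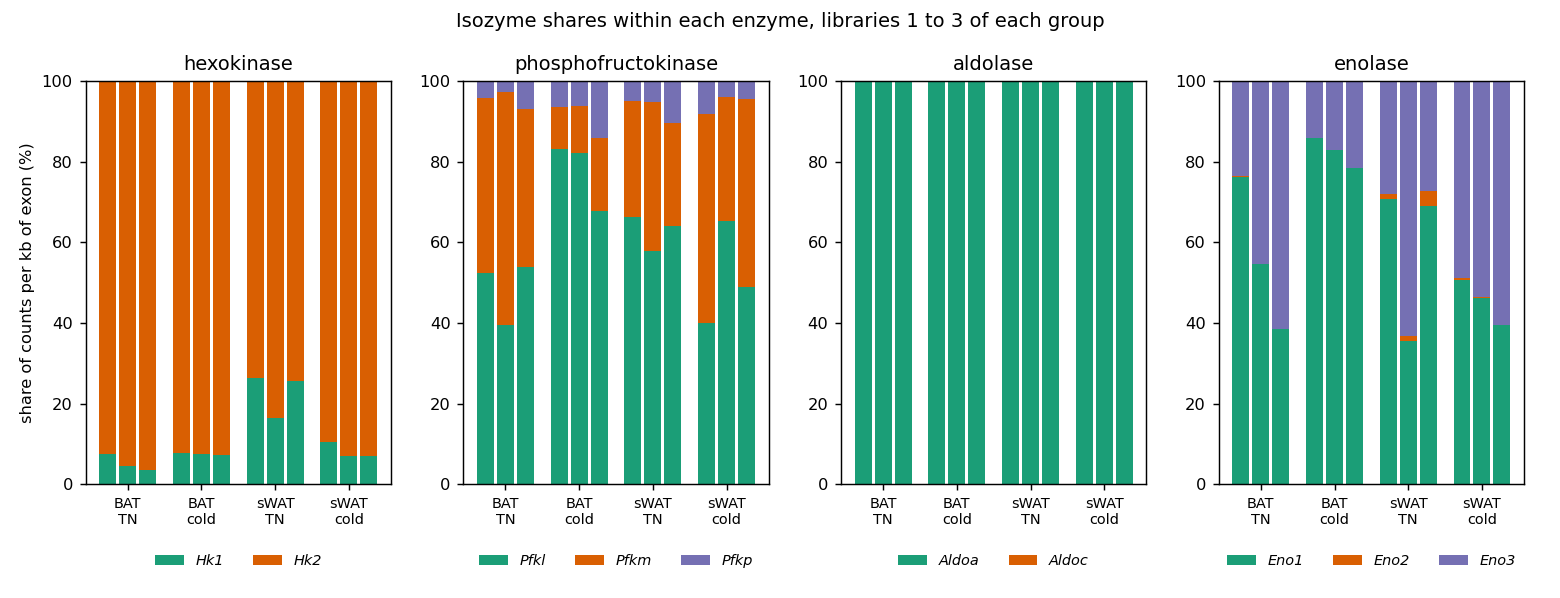
Share of counts per kilobase of exon (percent, vertical axis) held by each isozyme within its enzyme, with a bar for each of the 12 libraries in the order 1, 2 and 3 within each group. In BAT the Pfkl and Eno1 parts are taller in all cold libraries than in any thermoneutral library, whereas the sWAT groups overlap for both.

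Aldolase. Aldoa (ENSMUSG00000030695.16, chromosome 7, 126795234 to 126800751, minus strand) made up nearly all of the aldolase signal. It had 3052, 3249.7 and 1671 CPM in thermoneutral BAT and 6649.8, 6187 and 3510.4 CPM in cold BAT. The groups did not overlap and the cold mean was 2.05 times higher, yet the log2 fold change of 1.09 ± 0.39 did not pass (edgeR adjusted p = 0.104). It passed without BAT cold library 3 (1.33, adjusted p = 0.0413), with the GC correction (0.99, 0.0360) and in DESeq2 (1.11, 0.0277). In sWAT Aldoa had 2356, 1720.3 and 789 CPM at thermoneutrality and 2012, 6099 and 5187 CPM in cold. Cold library 1 lay within the thermoneutral range, and the log2 fold change was 1.44 ± 0.55 (edgeR adjusted p = 0.0563), or 1.79 (0.00949) without that library and 2.27 (0.00578) with the GC correction.

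Aldoc (ENSMUSG00000017390.15, chromosome 11, 78322968 to 78327781, plus strand) was scarce throughout and went the other way in BAT. It had 113, 123 and 96 counts in thermoneutral BAT libraries 1, 2 and 3 and 17, 21 and 20 counts in cold BAT, or 4.10, 3.48 and 2.25 CPM against 0.76, 0.63 and 0.67 CPM. The groups did not overlap, and Aldoc fell by 2.19 ± 0.36 on the log2 scale (edgeR adjusted p = 0.00868, and 0.0527 without BAT cold library 2, within 8.03e-06 to 0.0527 over all alternatives). In sWAT it had 38, 29 and 52 counts at thermoneutrality and 47, 30 and 31 in cold, a log2 fold change of 0.08 ± 0.36 (edgeR adjusted p = 0.869). The Aldoc share of aldolase was 0.120%, 0.0953% and 0.120% in thermoneutral BAT and 0.0102%, 0.00912% and 0.0171% in cold BAT, without overlap (exact permutation p = 0.1, the smallest possible). In sWAT the shares overlapped, with means of 0.0604% and 0.0228% (exact permutation p = 0.3).

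Enolase. Eno1 (ENSMUSG00000063524.13, chromosome 4, 150236721 to 150248879, plus strand) had 1081.5, 889 and 314 CPM in thermoneutral BAT and 1731.5, 1548 and 900.05 CPM in cold BAT. The lowest library of each BAT group was library 3, the groups overlapped, and the log2 fold change of 0.93 ± 0.47 did not pass (edgeR adjusted p = 0.226). Over all alternatives the adjusted p in BAT ran from 0.0112 to 0.449, so some of them passed. In sWAT Eno1 had 695, 386 and 253 CPM at thermoneutrality and 469.97, 1088 and 1105.5 CPM in cold, with a log2 fold change of 0.98 ± 0.48 (edgeR adjusted p = 0.119), or 1.29 (0.0256) without sWAT cold library 1 and 1.87 (0.00670) with the GC correction. Of the distinct 100-base stretches of Eno1 exon sequence, 20.3% also occur in the retrogene Eno1b, so reads there could be counted for either. Eno1b had 276 counts in BAT cold library 3, where Eno1 had 26766, and 6 to 84 counts in the other 11 libraries.

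Eno3 (ENSMUSG00000060600.15, chromosome 11, 70657202 to 70662513, plus strand) had 109, 238 and 162 CPM in thermoneutral BAT and 92.8, 103 and 80.4 CPM in cold BAT. The cold libraries lay below the thermoneutral ones, but the log2 fold change of −0.83 ± 0.33 did not pass (edgeR adjusted p = 0.140). In sWAT Eno3 had 89.1, 221 and 32.4 CPM at thermoneutrality and 146, 408 and 548 CPM in cold, with overlap, and a log2 fold change of 1.69 ± 0.69 (edgeR adjusted p = 0.0697). It passed without sWAT thermoneutral library 2 (2.57, adjusted p = 0.0267), in DESeq2 (1.71, 0.0162) and with the GC correction (2.27, 0.0275).

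Eno2 (ENSMUSG00000004267.16, chromosome 6, 124760053 to 124769673, minus strand) was the rarest of the 3 listed enolases in every group. It had 441, 436 and 621 counts in thermoneutral sWAT libraries 1, 2 and 3 and 169, 51 and 48 in cold sWAT, or 10.3, 10.6 and 11.8 CPM against 3.13, 1.52 and 1.504 CPM. The groups were far apart, and Eno2 fell by 2.39 ± 0.37 on the log2 scale (edgeR adjusted p = 0.00135). In BAT it had 31, 21 and 24 counts at thermoneutrality and 8, 12 and 12 in cold, a log2 fold change of −0.94 ± 0.43 (edgeR adjusted p = 0.185).

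**Figure D3:**
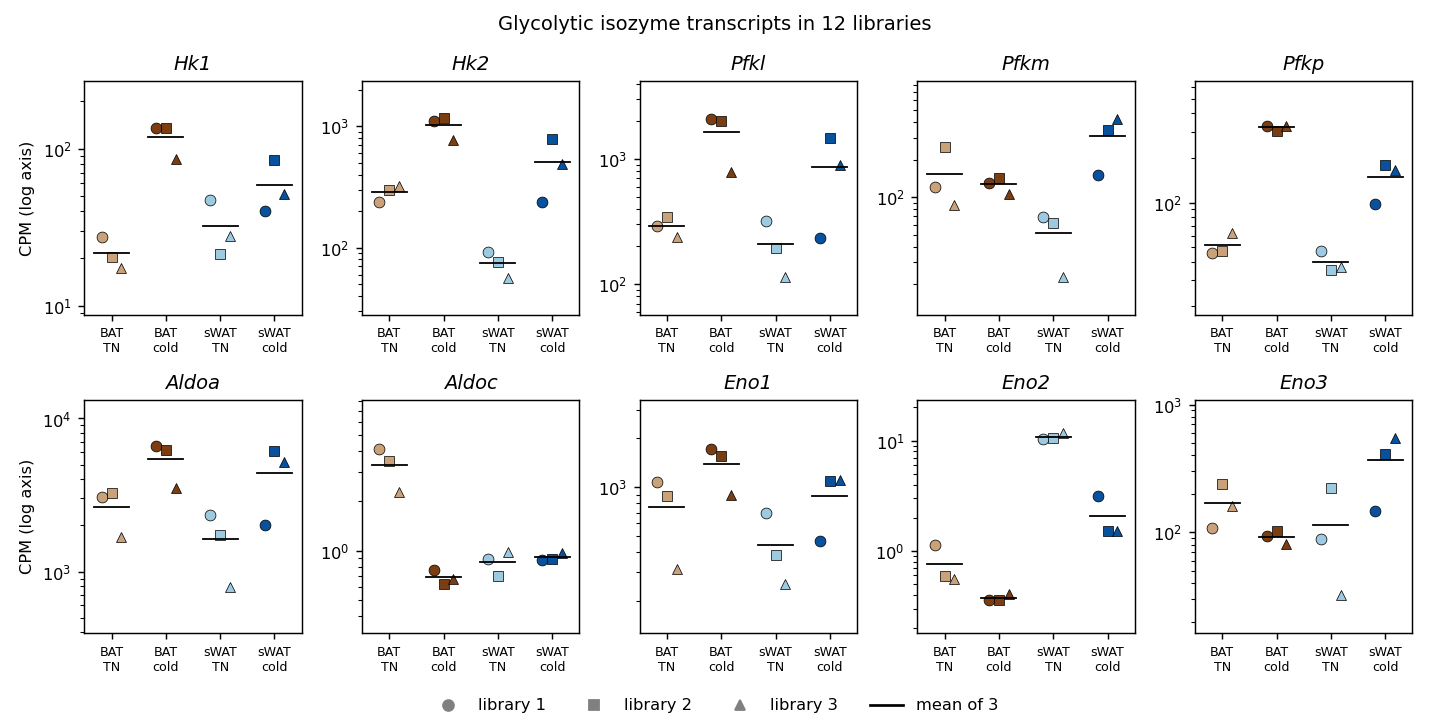
CPM of each isozyme in the 12 libraries on log axes, one panel per gene, with circles, squares and triangles for libraries 1, 2 and 3 and a line at the mean of 3. Aldoc is highest in thermoneutral BAT (2.25 to 4.10 CPM) and Eno2 in thermoneutral sWAT (10.3 to 11.8 CPM), whereas Hk2, Pfkl and Pfkp are higher in cold BAT than in thermoneutral BAT in every library.

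In BAT the Eno1 share of enolase was 76.2%, 54.7% and 38.5% at thermoneutrality and 85.8%, 82.9% and 78.3% in cold, and the Eno3 share 23.7%, 45.3% and 61.4% against 14.2%, 17.1% and 21.6%. Neither overlapped between the temperatures (exact permutation p = 0.1 for each, the smallest possible), and thermoneutral BAT varied more among its libraries than cold BAT did. In sWAT the Eno1 share was 70.8%, 35.6% and 69.0% at thermoneutrality and 50.7%, 46.3% and 39.4% in cold, with overlap (exact permutation p = 0.4). Eno3 held 39.5 ± 20.5% and 54.3 ± 5.84% there. Which of Eno1 and Eno3 was larger in cold sWAT depends on the length used, since by coding length Eno1 held 71.8% and Eno3 28.0%. The length also moves the BAT shares, as the coding lengths are equal (1302 bases). By coding length Eno1 held 78.5% of BAT enolase at thermoneutrality and 93.5% in cold, and Eno3 21.4% and 6.51%. The Eno1 groups then lay close together, with a thermoneutral highest of 90.8% and a cold lowest of 91.8%. By exon union Eno2 held 1.19%, 1.12% and 3.67% of sWAT enolase at thermoneutrality and 0.387%, 0.0739% and 0.0613% in cold. The enolase pool was 239 ± 78.2 and 312 ± 86.4 CPM per kilobase in BAT and 151 ± 72.0 and 377 ± 182 in sWAT, at thermoneutrality and in cold.

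The isozymes of an enzyme together had 4013 to 205461 counts in a library, and the widest 95% Wilson interval of a share of counts was 2.78 percentage points, which covers counting error only. For Aldoc and Eno2 in BAT the intervals were at most 0.0962 points wide, which is wider than the mean Eno2 shift there (−0.0429 points). Share shifts were tested for 10 genes in each of 2 tissues, and with 3 libraries a group none can go below p = 0.1, so by the exact permutation test none passes before or after adjustment and the shares stand as descriptions.

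BAT against sWAT at thermoneutrality asks how the isozymes differ between the depots without a cold load. Hk2, Pfkm and Aldoc were higher in BAT and Eno2 was lower, 3 and 1 of 10, where 29.9% of the 16365 genes tested over all 12 libraries were called higher and 28.8% lower. Hk2 differed by 1.94 ± 0.41 on the log2 scale (edgeR adjusted p = 0.00124), Aldoc by 1.92 ± 0.33 (0.000328) and Eno2 by −3.85 ± 0.40 (7.77e-06). Pfkm differed by 1.58 ± 0.49 (edgeR adjusted p = 0.0147), a call that was lost without BAT thermoneutral library 2 (0.0938) or sWAT thermoneutral library 3 (0.0540). With the GC correction Pfkl, Aldoa and Eno1 also passed as higher in BAT (1.44, 1.64 and 1.71 on the log2 scale), and 7 of 10 isozymes were called. Of the 16365 genes tested, 9454 were called with that correction. The remaining log2 differences ranged from −0.56 ± 0.35 for Hk1, which was 0.30 with the GC correction, to 0.78 ± 0.51 for Eno1.

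In the cold, fewer genes separated the depots: 1.19% were called higher in BAT and 11.1% lower. The larger thermoneutral counts include the sWAT libraries that stood apart, so temperature and library composition cannot be told apart in this contrast. Pfkp was higher in BAT by 1.12 ± 0.28 on the log2 scale (edgeR adjusted p = 0.0162). Eno2 was lower by 2.45 (−2.45 ± 0.41, adjusted p = 0.00123), and Eno3 was lower as well (−1.996 ± 0.61, adjusted p = 0.0469). The Eno3 call was lost under median-of-ratios scaling (0.0523), and on leaving out any of the 6 BAT libraries, sWAT cold library 2 or 3, or sWAT thermoneutral library 1 (0.0573 to 0.154 over these 9). Hk1 and Hk2, each higher in BAT by 1.01 on the log2 scale, did not pass (edgeR adjusted p = 0.0827 and 0.118), but both passed in DESeq2 (0.0273 and 0.0330) and without sWAT cold library 2 (0.0199 and 0.0167). Hk1 also passed with the GC correction (0.0154) and without BAT cold library 3 (0.0327) or BAT thermoneutral library 1 (0.0442).

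The response to cold differed between the tissues for Hk1, Pfkm, Aldoc and Eno3, tested as the BAT log2 fold change minus that of sWAT in a fit over all 12 libraries. Hk1 responded more in BAT, by 1.57 ± 0.50 (edgeR adjusted p = 0.0348). Pfkm (−2.87 ± 0.70, adjusted p = 0.0109), Aldoc (−2.33 ± 0.48, 0.00493) and Eno3 (−2.57 ± 0.84, 0.0397) had the lower response in BAT. That is 1 higher and 3 lower of 10, against 7.85% and 17.3% of all genes tested, whose median difference was −0.12, or 0.032 under median-of-ratios scaling. These 4 directions and calls were the same under that scaling. The Hk1 call was lost with the GC correction (0.72, adjusted p = 0.177) and without BAT thermoneutral library 3, sWAT cold library 3 or sWAT thermoneutral library 1 (0.0738, 0.0835 and 0.0909). The Eno3 call was lost on leaving out any of the 3 BAT cold libraries, library 2 or 3 of thermoneutral BAT, library 2 or 3 of cold sWAT, or library 1 or 3 of thermoneutral sWAT (0.0528 to 0.110 over these 9). For the isozymes called in both tissues, the differences were −0.93 ± 0.55 for Hk2, 0.44 ± 0.81 for Pfkl and 0.74 ± 0.39 for Pfkp, none of which passed (edgeR adjusted p = 0.233, 0.721 and 0.172), which does not show that the tissues responded alike. The sign for Pfkl turned with the GC correction (−0.52).

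Markers of other cell types moved with some isozymes. The 20 skeletal muscle markers, none of them without counts in any library, summed to 5143.5, 15728 and 17056 CPM in thermoneutral BAT, 7209, 9198 and 6420.1 CPM in cold BAT, 2541, 6520.2 and 165 CPM in thermoneutral sWAT and 11013, 28175 and 28425 CPM in cold sWAT. The libraries with the highest sums, sWAT cold libraries 2 and 3, also had the highest Pfkm and Eno3, and the library with the lowest sum, sWAT thermoneutral library 3, had the lowest of both. BAT thermoneutral library 3 was an exception for Pfkm, with a muscle sum of 17056 CPM and 86.6 CPM of Pfkm. Eno3 did not keep the order throughout either. It had 221 CPM in sWAT thermoneutral library 2 (muscle sum 6520.2 CPM) and 162 CPM in BAT thermoneutral library 3. The part of muscle RNA in the Pfkm and Eno3 results and in their shares was not tested.

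Several marker lists moved with Eno2, the neuronal form, in sWAT. The 14 Schwann cell and nerve markers, of which up to 3 had no counts in a library, summed to 218 to 257 CPM in thermoneutral sWAT and 215 to 295 CPM in cold sWAT, ranges that overlap. The median of the same markers was 1.97, 1.47 and 1.51 CPM at thermoneutrality and 0.918, 0.849 and 1.24 CPM in cold, without overlap. Of 9 nerve markers tested in sWAT, 2 were called higher and 4 lower in cold. Over all genes tested there, 25.1% were called higher and 24.1% lower. The macrophage sums given above (971 to 1554 and 285 to 422 CPM) and the lymphocyte sums (735 to 939 and 190 to 572 CPM, over 12 markers) were also lower in cold sWAT. The part of these cell types in the Eno2 result was not tested.

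**Figure D4:**
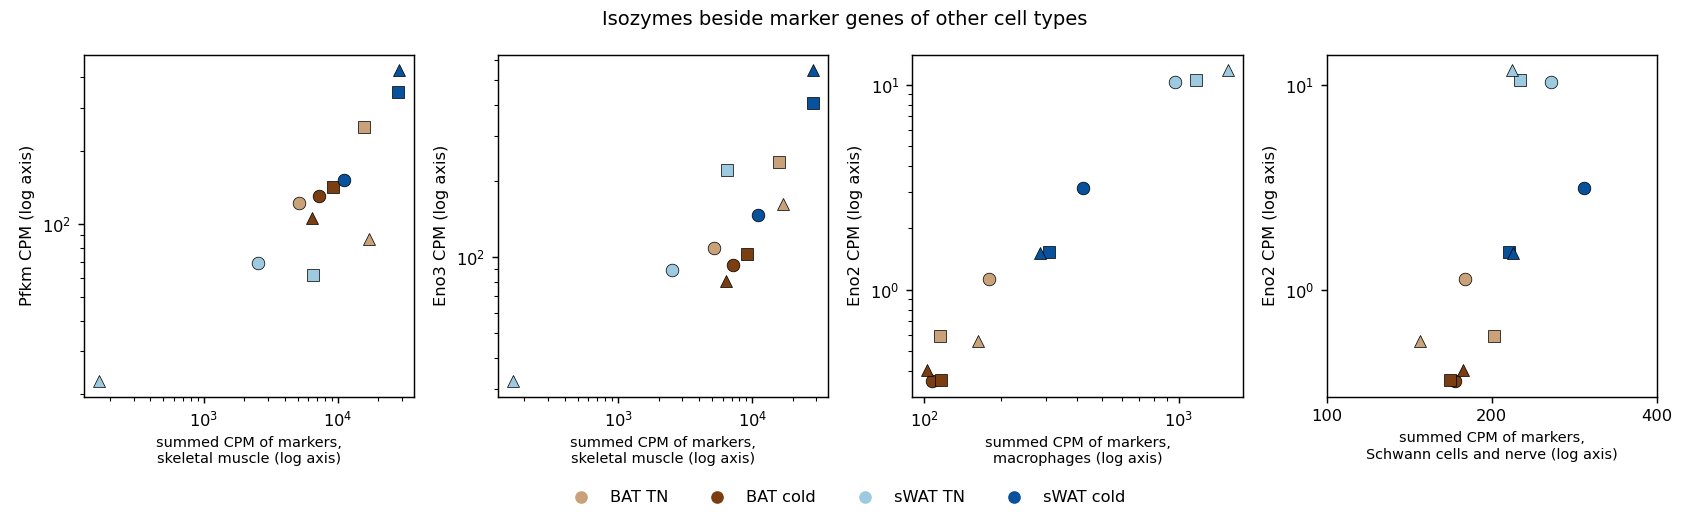
CPM of Pfkm, Eno3 and Eno2 (vertical, log axes) against the summed CPM of marker genes (horizontal, log axes), with colours for the 4 groups and circles, squares and triangles for libraries 1, 2 and 3. Pfkm and Eno3 are highest in the sWAT cold libraries with muscle sums of 28175 and 28425 CPM, and the nerve panel shows sWAT libraries at similar nerve sums (215 to 295 CPM) with Eno2 between 1.504 and 11.8 CPM.

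Other genes of the pathway were counted in the same fits, in which 6.82% of all genes were called higher in BAT and 25.1% in sWAT. Counts in lists as short as 1 of 3 or 3 of 7 in sWAT are not read as results about the list beside that share. Among 6 tested genes of upper glycolysis and its regulators, 2 rose and none fell in BAT (median log2 fold change 0.48): Gpi1, the isomerase after hexokinase, by 1.97 ± 0.28 (edgeR adjusted p = 0.00533), and Tigar, which breaks down the activator of phosphofructokinase, by 1.56 (0.0192). In sWAT 4 of 6 rose, among them Tigar (2.04), Pfkfb3 (1.40) and Pfkfb1 (1.60), of which the last 2 can make that activator. Of the lower glycolytic genes 3 of 8 tested rose in BAT, namely Pkm, the pyruvate kinase (2.19 ± 0.35, adjusted p = 0.00783), Pgam1 (1.97) and Gapdh (1.54), and 7 of 7 tested rose in sWAT, with list medians of 1.12 and 1.80.

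Among genes of glucose entry, Slc2a4, the insulin-regulated glucose transporter, had a log2 fold change of 1.02 ± 0.33 in BAT (edgeR adjusted p = 0.0805, and 0.0211 in DESeq2). Of 6 genes of this list tested in each tissue, 0 were called in BAT, and 2 were called higher and 4 lower in sWAT. Over all genes tested in sWAT, 25.1% were called higher and 24.1% lower. Slc2a4 had 176 ± 57.9 CPM in thermoneutral and 504 ± 173 CPM in cold sWAT (SD, n = 3). In sWAT Hk3 fell as given above, and Adpgk, which phosphorylates glucose with ADP, fell by 1.12 on the log2 scale (edgeR adjusted p = 0.00436).

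On the lactate side, 2 of 4 genes rose in BAT, the lactate dehydrogenase Ldha (1.45) and the monocarboxylate transporter Slc16a1 (1.34), and 3 of 4 rose in sWAT, with Ldhb at 3.38 (edgeR adjusted p = 0.000549) and Slc16a1 at 2.68. The opposing fructose bisphosphatases Fbp1 (1.57) and Fbp2 (1.35) rose in BAT, 2 of 4 of their list, and Fbp2 rose in sWAT by 3.80 (edgeR adjusted p = 0.00156), 1 of 3. Fbp1 was scarce, with 0.253 ± 0.0329 CPM in thermoneutral and 0.741 ± 0.212 CPM in cold BAT (SD, n = 3). In the pentose phosphate branch 3 of 7 rose in each tissue, with Pgd at 2.80 ± 0.29 in BAT (edgeR adjusted p = 0.00169) and G6pdx, which opens the branch, at 1.62 and 2.37 in BAT and sWAT. Of 10 regulators of glycolytic genes, 2 rose in BAT (Ppargc1a 2.43, Mlx 0.95), and in sWAT 5 rose and 1 fell, with Ppargc1a, a coactivator of mitochondrial genes, at 5.98 and the glucose sensor Mlxipl at 1.86. Many of these calls were lost with 1 library fewer. Without BAT cold library 1 or 2, or thermoneutral library 1, 2 or 3, the BAT calls of Tigar, Pgam1, Gapdh, Ldha, Slc16a1, Fbp1, Fbp2, G6pdx, Rpia, Ppargc1a and Mlx were each lost in at least 1 case (adjusted p = 0.0520 to 0.177 where lost), with folds that were in part larger, such as 1.67 for Ldha without thermoneutral library 2. Leaving out cold library 1 or 2 or thermoneutral library 1 or 2 also lowered the count of all genes called in BAT from 1777 to between 451 and 588. In sWAT the calls of Ldha and Pgd were lost without library 2 or 3 of either group, that of Pkm without thermoneutral library 2, and that of Rpe without library 1 or 3 of either group (0.0507 to 0.125 where lost).

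The genes whose log2 CPM ran most like each isozyme over the 12 libraries, among 8470 candidates, were listed by Pearson correlation as a description. The libraries share tissue and temperature, so high values are common. Hk2 ran closest to Slmo2 (0.994) and Kcmf1 (0.989), Hk1 to Btd (0.980) and Fah (0.979), Pfkl to Impa2 (0.995) and Aspg (0.990), and Pfkp to Hacd2 (0.992) and Arfgef2 (0.986). Pfkm ran closest to Stac3 (0.961) and Pygm (0.954), the muscle glycogen phosphorylase, and Eno3 to Rtn2 (0.974) and Myoz1 (0.964), a muscle marker of the list above. Eno2 ran closest to Cxcl16 and Nrros (0.994 each), Eno1 to Acsf3 (0.979) and Tbrg4 (0.966), Aldoa to Aspg (0.969) and Aifm2 (0.963), and Aldoc to Inca1 (0.977) and Lrrc8a (0.957).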

How the data were processed

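RNA sequencing libraries were made, per the labels' protocols, from 1000 ng of total RNA with a TruSeq kit for total RNA and read as pairs of 100 nt. The authors deposited a single table of whole-number counts per gene symbol, not normalized. STAR, DESeq2 and mm10 are named in the submitters' processing notes without versions. Neither the counting tool nor the strand setting or annotation is stated in those sources. The columns of the first cold BAT and the second cold sWAT library, carry the prefix Merged, without explanation. Every column was assigned to a sample by its name.

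Counts were tested in R 4.3.3 with edgeR 4.0.16 (filterByExpr with a minimum count of 10 and a total of 15, TMM factors, glmQLFit with robust=TRUE, glmQLFTest), with Benjamini-Hochberg adjustment over all genes tested and a threshold of 0.05. Cold and thermoneutral were compared within each tissue over 6 libraries, and the tissues and the difference of responses in a fit over 12. An SE is the log2 fold change divided by the square root of F. CPM use TMM-scaled totals over 12 libraries. Lengths and positions came from GENCODE M21 on GRCm38, in which 22227 gene symbols (96.0%) matched, and promoter sequences from RefSeq GRCm38.p6, with windows for all 10 isozymes. Fits were tested on simulated data. No pair of libraries of a group agreed within sampling noise.

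The named genes were the 10 isozymes, up to 3 genes of each pathway list with the smallest adjusted p past the threshold in each tissue (1 where none passed), and the 2 genes most correlated with each isozyme among genes averaging 3 or more on the log2 CPM scale (prior count 2). An item covered by this rule is not reported here. The isozymes and the lists were chosen with earlier results of these data known. Alternatives were RLE scaling, leaving out the 13 mitochondrially encoded genes, no filter, the DESeq2 1.42.0 Wald test, a loess correction for GC content, the library number as a block, all libraries numbered 3 left out, each library left out, and other lengths for the shares.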

Additional observations from a re-analysis of the deposited data

Results flagged for a closer look

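The cold response of 4 isozymes differed between BAT and sWAT by the test of the difference itself (log2 fold change in BAT minus that in sWAT, edgeR over 12 libraries). The differences were 1.57 for Hk1, −2.87 for Pfkm, −2.33 for Aldoc and −2.57 for Eno3. Over all alternatives their adjusted p-values ranged from 0.00661 to 0.227 for Hk1, 0.00101 to 0.0399 for Pfkm, 0.000400 to 0.0286 for Aldoc and 0.0119 to 0.160 for Eno3. Groups of 3 libraries were not screened for outlying samples.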

How the results depend on the processing

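Of 10 isozymes, 5 were called in BAT and 5 in sWAT, with 4 to 6 and 4 to 8 on leaving out 1 library. The GC correction gave 9 in sWAT, 7 between tissues at thermoneutrality (4 without it), and the replicate block with GC correction gave 9 and 8. Between tissues in cold, 3 were called, 5 in DESeq2, 1 with all libraries numbered 3 left out and 2 to 4 without 1 library. For the difference of responses 4 were called, 2 without the libraries numbered 3 and 2 to 5 without 1 library. Of all genes, 1777 were called in BAT, 2806 in DESeq2, 3082 with the GC correction, 2799 with a replicate block, 3476 with both, 6509 without the libraries numbered 3 and 451 to 2483 without 1 library. In sWAT 7734 of 15731 became 6849 with the GC correction and 5580 with the block added. The sWAT count was 4578 without the libraries numbered 3 and 5672 to 8719 without 1 library. Between tissues at thermoneutrality 9599 of 16365 became 9454 with the GC correction and 9235 with the block added. Between tissues in cold 2015 became 2776 in DESeq2, 1596 without the libraries numbered 3 and 1100 to 2239 without 1 library. For the difference of responses 4108 became 4031 without the libraries numbered 3 and 2419 to 5498 without 1 library. RLE scaling moved the share of higher calls in that difference from 31.3% to 41.6%.

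Signs turned only for values that did not pass, except Rpe in sWAT, which went from 0.81 to −0.69 with the GC correction and −0.67 with the replicate block added. Hk1 between tissues at thermoneutrality became 0.30 with the GC correction and 0.31 with the block added. The difference of responses for Pfkl became −0.52 and −0.49 under the same settings. That of Eno1 (−0.13) became 0.050 under RLE and in DESeq2, 0.036 without mitochondrially encoded genes, 0.20 without the libraries numbered 3 and −0.60 to 0.39 without 1 library. That of Aldoa became 0.026 without the libraries numbered 3 and −0.78 to 0.075 without 1 library. Pfkm in BAT ranged from −0.53 to 0.36 and Aldoc in sWAT from −0.059 to 0.21 without 1 library. By the longest transcript the Hk1 share shifted by 3.78 points in BAT (2.25 by exon union) and −21.1 in sWAT. The Aldoa shift in BAT (0.0995 points) was 0.0620 by the longest transcript, 0.128 by coding length and 0.111 in raw counts. The cause of these changes was not tested.

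The sample titles number the experiments without saying what an experiment shared. Deviations from group means were correlated for cold with thermoneutral libraries within each tissue and for BAT with sWAT libraries within each temperature. Over these pairs of groups the correlations of same-numbered libraries ran from −0.468 to 0.531. They were 0.306, 0.0665 and 0.289 in BAT, where each cold library correlated best with its own number, and −0.231, 0.187 and −0.313 in sWAT. They were not above 0.1 throughout in any of these pairs of groups, so the numbers were not taken as pairs. With a replicate block Aldoa and Eno1 passed in BAT (adjusted p = 0.0371 and 0.0450), and Pfkl no longer passed in sWAT (0.106). Aldoc and Eno2 had as few as 17 and 8 counts in a library, which limits their precision.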
